A study of Mus musculus with 7 samples.

Results

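Gastric corpus 72 h after the last dose of diphtheria toxin was compared with corpus of a saline-treated mouse, which asked what had and had not returned to the control level. The comparison used 3 of the 7 arrays of the series: the 2 arrays labelled 72 h A and 72 h B, and the single uninjured control. The other 4 arrays, 1 at 24 h, 1 at 36 h and 2 at 48 h, are given beside it where an earlier departure matters. All mice, the control included, were of the Atp4b-DTR genotype and 8 to 12 weeks old. They carried the diphtheria toxin receptor under Atp4b, a gene of parietal cells, which makes those cells the target of the toxin. Toxin was given at 225 ng per mouse by intraperitoneal injection on 3 consecutive days, and the control received saline. Littermates served as controls when possible, and the meaning of the letters A and B was not given. The 72 h samples were described as independent, without saying which animals they came from.

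The corpus is the acid-secreting part of the stomach. Its glands hold pit cells that make surface mucus, mucous neck cells, acid-secreting parietal cells, enzyme-secreting chief cells, and endocrine and tuft cells. Parietal cells are rich in mitochondria and secrete acid through a proton pump in their apical membrane. They also make growth factors, and their loss in mouse models is known to be followed by division of gland cells and by a change of the mucous and chief lineages.

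Values are log2 signal of the arrays, and a difference of 1 is 2-fold. Of 22180 genes with 1 probe set each, 905 lay on X and 17 on Y and were left out, which left 21258. Array medians over all probe sets ran from 4.56 to 4.71. Precision is set by how few arrays there are. The control has no replicate, so a trait of that 1 array and an effect of the toxin cannot be told apart. A pattern of sex-linked genes also moved with the comparison. Xist, the RNA that silences an X chromosome in female cells, read 8.13 on the control, 9.17 at 24 h and 2.70 to 3.27 on the other arrays, and the Y-linked gene Eif2s3y read 3.81, 3.40 and 7.79 to 8.39. The part of that pattern in the autosomal differences was not tested.

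At 72 h, as on each earlier toxin array, most of the transcriptome was close to the control. On both 72 h arrays 18256 genes (85.9%) lay within 0.5 of the control. Taken singly, the arrays had shares of 87.2% (24 h), 87.2% (36 h), 88.8% and 86.1% (48 h), and 88.7% and 90.2% (72 h). Closeness of most genes is thus not particular to 72 h. Only 73 (0.343%) were at least 2-fold higher on both and 151 (0.71%) at least 2-fold lower on both, and 2778 (13.1%) lay in neither class. These shares of all genes are the background for the list counts that follow. The median difference over all 21258 genes was 0.0 on either array. Limma called 0 genes (0.0%) at an adjusted p under 0.05, and the smallest adjusted p was 0.146. At an unadjusted p under 0.05 there were 1717 higher (8.08%) and 2103 lower (9.89%) genes. With 2 arrays against 1, an exact permutation test cannot go below 0.333, so the 2-fold classes are sizes on both arrays and not calls. Just inside the higher class lay Rdh16, at 1.011 and 1.34, and just outside it Il22ra1, at 1.22 and 0.999. Just inside the lower class lay Odr4, at -1.02 and -1.002, and just outside it Tacr2, at -1.30 and -0.999.

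The 2 arrays of 72 h gave like pictures. Their median absolute difference was 0.098, 67 genes differed at least 2-fold between them, and 2265 had equal values on both. Array A held more genes far from the control, with 139 at least 2-fold higher and 270 lower, against 99 and 216 on array B. There were 3 genes at least 2-fold from the control on opposite sides. The plot of array B against array A shows only the 2-fold classes, both near the line of equal values. These genes were chosen for lying on the same side of the control on both arrays. Their nearness to that line is in part set by this choice, so the plot does not measure likeness.

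**Figure D1:**
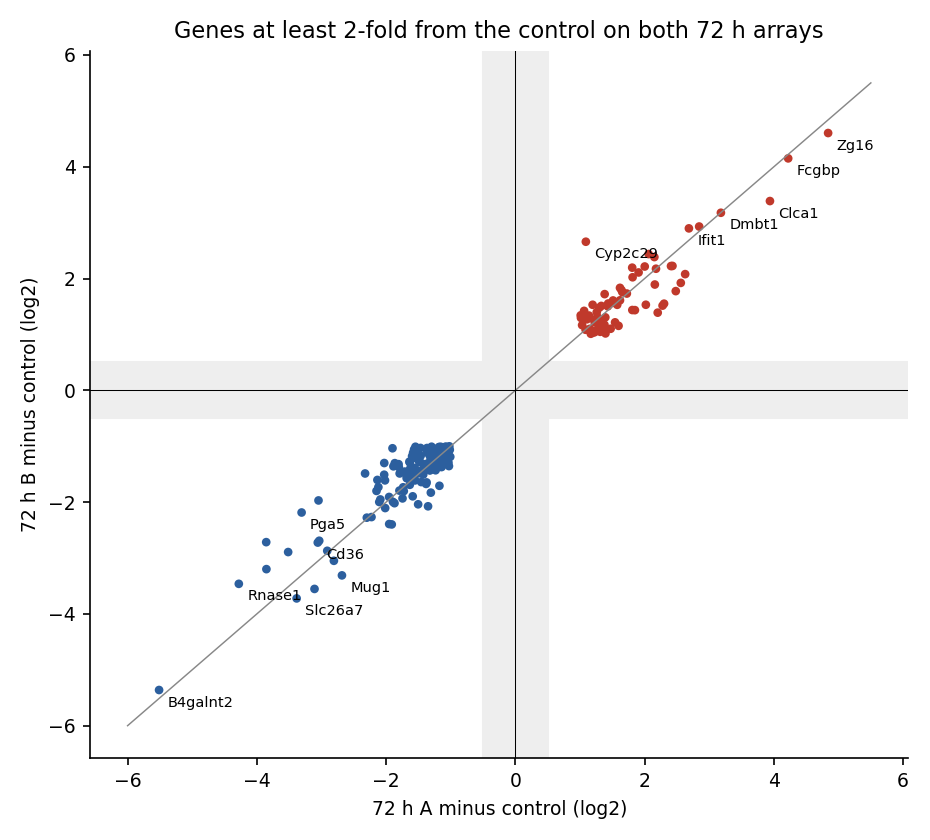
Difference from the control (log2) on array 72 h B against that on array 72 h A, for the 73 genes at least 2-fold higher (red) and the 151 at least 2-fold lower (blue) on both. The diagonal marks equal values and the grey bands mark 0.5 on either side of the control; B4galnt2 lies lowest at about -5.44 as a mean of both arrays and Zg16 highest at 4.72.

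The proton pump subunits lay near the control, and 3 transporters of acid secretion were still at least 2-fold lower on both arrays. Atp4a, the catalytic subunit of the proton pump, read 12.78 on the control, 12.42 on array A and 12.63 on array B. Atp4b, its beta subunit, read 12.94, 12.65 and 12.92. Kcne2, a subunit of the apical potassium channel that the pump needs, read 10.21, 9.80 and 10.08. All 3 were below the control on both arrays and within 0.5 of it, with limma differences of -0.25 ± 0.42 (SE), -0.15 ± 0.38 and -0.27 ± 0.32. Kcnq1, the pore subunit of that channel, lay between the classes at 8.88, 8.26 and 8.53. Other genes of acid secretion had not come nearer since 48 h. Kcnj15, a marker of parietal cells, lay in neither class at 9.39, 8.72 and 9.02, below both 48 h arrays (9.13 and 9.06). Slc9a4 lay within 0.5 at 10.83, 10.52 and 10.37, against 10.80 and 10.52 on the 48 h pair.

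Some transporters of chloride, bicarbonate and water were less near the control on array A than on array B, while Slc26a7, given below, was nearer on A. Slc26a9, an apical anion transporter, read 11.06 on the control, 10.20 on A and 10.94 on B. Slc4a2, the basolateral exchanger of chloride for bicarbonate, read 9.58, 8.77 and 9.33. Aqp4, the basolateral water channel, read 8.53, 7.05 and 7.78. Each lay below the control on both arrays and was above both 48 h arrays, which for Aqp4 read 5.69 and 6.29. Limma gave Aqp4 a difference of -1.12 ± 0.47 with an adjusted p of 0.363.

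Other transporters were still far below the control. Slc26a7, a basolateral exchanger of parietal cells, read 8.66 on the control and 5.28 and 4.94 at 72 h. Its 4 earlier arrays lay between -4.40 and -3.72 from the control, both 72 h arrays were above both 48 h arrays (4.26 and 4.67), and limma put 72 h at -3.55 ± 0.26 (adjusted p 0.146). Kcnj16, an inward rectifier potassium channel subunit, read 10.75, 9.17 and 9.64. Slc5a8, a sodium-coupled carrier of monocarboxylates, read 6.24, 4.56 and 4.67. These were the 3 members of the acid transport list in the lower 2-fold class.

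Of 19 measured genes of that list, 9 (47.4%) were within 0.5 on both arrays, against 85.9% of all genes, 14 were lower on both and 3 higher on both. Over all genes 34.5% were higher and 33.7% lower on both. The median difference of the list went from -1.25 (24 h) and -0.61 (36 h) through -1.13 and -0.55 (48 h) to -0.60 and -0.25 (72 h), so array A was no nearer to the control than the second 48 h array. On both 72 h arrays 10 of 19 members were higher than on both 48 h arrays, against 16.8% of all genes. In whole tissue, fewer cells of a type and less RNA per cell cannot be told apart.

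**Figure D2:**
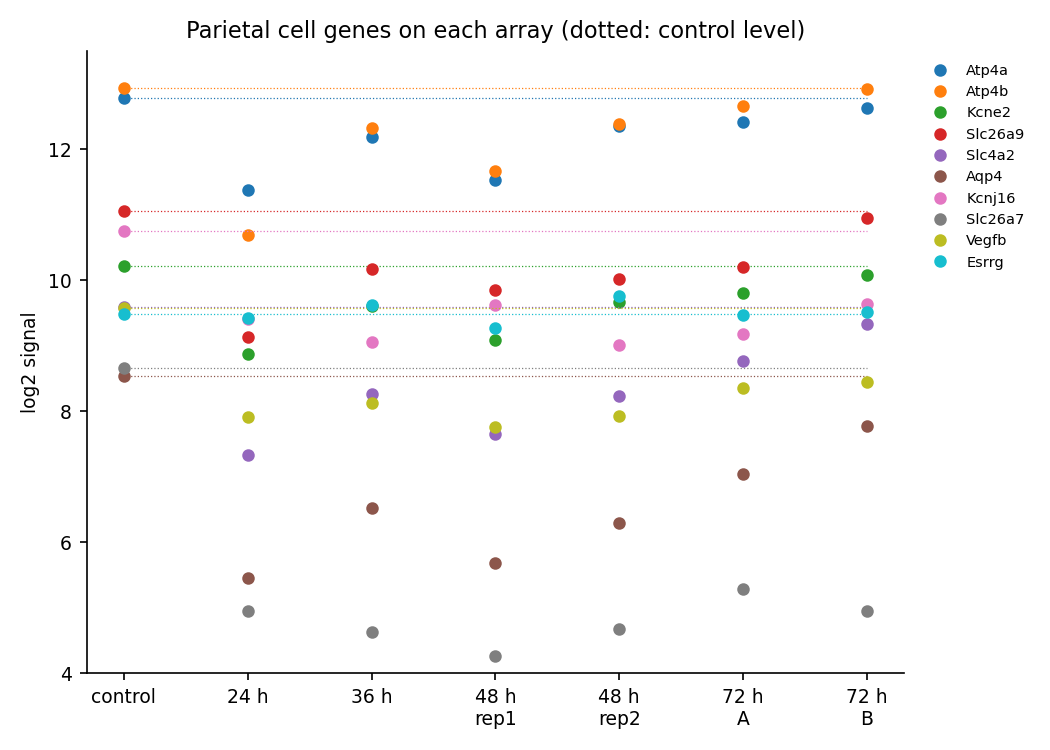
Log2 signal of 10 parietal cell genes on the control, the 4 earlier toxin arrays and the 2 arrays of 72 h, with the control level of each gene as a dotted line. Atp4a, Atp4b and Kcne2 sit close below their lines at 72 h, Aqp4 is part of the way back at 7.05 and 7.78, and Slc26a7, at 5.28 and 4.94, remains far below its line.

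Regulators of the parietal cell lay both near the control and far below it. Esrrg, a nuclear receptor of mitochondrial genes, read 9.48 on the control, 9.47 on A and 9.52 on B, and its coactivator Ppargc1a read 7.95, 8.30 and 8.06. Neither had departed before: on the 4 earlier arrays Esrrg differed from the control by -0.21 to 0.27 and Ppargc1a by -0.44 to 0.12. In contrast, Gpr155 read 9.17, 5.32 and 5.97, although its 3 probe sets ran from -3.53 to -0.03 as mean differences. Ptger3, a prostaglandin E receptor, read 7.89, 6.27 and 6.38, and limma gave -1.57 ± 0.09 (adjusted p 0.146). Vegfb, a growth factor of the VEGF family, read 9.57, 8.35 and 8.44. Esrrb, a relative of Esrrg, was dim at 4.64, 3.12 and 3.58, where the median over all genes on the control was 5.2. These 4 were the lower members of 24, of which 11 (45.8%) lay within 0.5 on both arrays and 0 were in the higher class.

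Genes of energy metabolism were close to the control. Of 31 complex I genes 28 (90.3%) lay within 0.5 on both arrays, with medians of 0.04 and 0.21, against -0.44 and -0.21 at 48 h. Of 20 TCA cycle genes 17 (85.0%) did, with medians of -0.11 and 0.03. Cs, citrate synthase, read 10.89, 10.86 and 10.93, while Idh2, a mitochondrial isocitrate dehydrogenase, stayed below the control at 10.02, 9.34 and 9.57. These shares were like the 85.9% of all genes.

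Genes of the later respiratory complexes had a lower share within 0.5. Of 33 measured genes of complexes III, IV and ATP synthase, 25 (75.8%) lay within 0.5 on both arrays, 7 in neither class and 1 in the lower class, and the medians were 0.07 and 0.26. Cox7a1, the muscle-type form of a complex IV subunit, read 8.61 on the control, 5.89 and 5.98 at 48 h, and 6.71 and 7.58 at 72 h. It was the sole member at least 2-fold lower on both 72 h arrays.

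The median of the sterol synthesis genes was near the control at 72 h, as it had been at 36 h. The list had medians of -0.73 (24 h), -0.02 (36 h), -0.51 and -0.55 (48 h), and -0.13 and 0.05 (72 h). Within 0.5 on both 72 h arrays lay 13 of 17 genes (76.5%), against 85.9% of all genes. Sqle, squalene epoxidase, read 8.20 on the control, 8.45 at 36 h, then 7.50 and 7.46 (48 h) and 8.19 and 8.28 (72 h). Hmgcs1, an early enzyme of the pathway, read 10.93, 10.48 and 10.82 on the control and 72 h arrays. Insig1, which restrains the pathway when sterol is plentiful, read 9.96, 9.43 and 9.79. The list's median of the mean differences was -0.02, and 0.06 after a further quantile normalisation.

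Lipid uptake genes held several members far below the control. Cd36, a fatty acid receptor, read 10.28 on the control and 7.22 and 7.56 at 72 h, and limma gave -2.89 ± 0.20 (adjusted p 0.146). Lpl, lipoprotein lipase, read 9.76, 6.72 and 7.79, and Fabp4, a fatty acid carrier of adipocytes and capillaries, 9.18, 7.88 and 7.93. Slc27a2 and Fabp1 were the other members at least 2-fold lower on both, and Fabp2 the one higher, among 22 measured, of which 11 (50%) were within 0.5. The list's medians were -0.17 and -0.08. Of 18 fatty acid oxidation genes 13 (72.2%) were within 0.5 and 0 were in a 2-fold class, with medians of -0.18 and -0.09. Of the 18, 13 were lower on both, against 33.7% of all genes. Of 12 adipocyte markers 9 (75.0%) lay within 0.5, with Adipoq at 3.37, 3.18 and 3.59 and Plin1 at 4.62, 4.62 and 4.69, and Fabp4 was the member at least 2-fold lower.

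Among chief cell genes, Pgc lay near the control and several other secreted products lay below it. Pgc, pepsinogen C, read 13.37, 13.35 and 13.31. The highest signals of any probe set on these arrays were 13.42, 13.45 and 13.45, which left little room for a higher reading. Whether saturation hid a change in Pgc was not tested. Cblif, gastric intrinsic factor, read 12.36 on the control and 11.35 and 11.17 at 72 h, with -1.10 ± 0.11 in limma (adjusted p 0.146). Rnase1, a secreted ribonuclease, read 8.42, 4.14 and 4.96. Pga5, another pepsinogen, read 8.23, 4.92 and 6.04, but 7.09 and 4.84 on the pair of 48 h arrays, which lay on either side of array B.

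The chief cell list held 19 measured genes, of which 15 were lower on both arrays, against 33.7% of all genes. Of the 19, 5 were at least 2-fold lower on both, and 10 (52.6%) lay within 0.5. Its medians were -0.36 and -0.41 at 72 h and -0.36 and -0.39 at 48 h. Tmed6 read 9.73, 8.14 and 7.83, and Slc16a7, a monocarboxylate transporter, read 10.94, 9.48 and 9.91. Bhlha15, the transcription factor that sets up the secretory apparatus of zymogenic cells, lay in neither class at 6.48, 5.72 and 5.97. Among genes of the unfolded protein response, 18 of 26 (69.2%) lay within 0.5 and Chac1 and Derl3 were at least 2-fold lower. Herpud1, a part of the degradation machinery of the endoplasmic reticulum, read 10.97, 10.14 and 9.80.

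Surface pit genes lay near the control at 72 h, as they had on the earlier arrays. The list's medians were 0.006 (24 h), 0.059 (36 h), 0.072 and -0.047 (48 h), and 0.054 and 0.005 (72 h). Of 17 measured genes 15 (88.2%) lay within 0.5 on both 72 h arrays, a share like the 85.9% of all genes. The 2-fold classes held 0 of the 17, against 0.343% (higher) and 0.71% (lower) of all genes. Tff1, a trefoil peptide of surface mucus, read 12.72, 12.73 and 12.73, and Gkn1 13.01, 13.00 and 12.92. Muc5ac, the mucin of pit cells, read 11.81, 12.21 and 12.11.

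Among mucous neck genes, those of the trefoil peptide and gastrokine were higher than the control. Tff2, the trefoil peptide of neck cells and of the metaplasia that follows parietal cell loss, read 11.47, 12.38 and 12.13. Gkn3, a gastrokine of neck cells, read 7.07, 8.92 and 8.51, against 8.84 and 7.93 at 48 h. Muc6, the mucin of neck cells, read 10.38, 10.50 and 9.97. Muc6 lay on both sides of the control, and Tff2 and Gkn3 were above it on both arrays. The list had 14 of 24 genes (58.3%) within 0.5 and 1, Gkn3, at least 2-fold higher. Cd44, a surface glycoprotein used as a marker of metaplasia, read 5.86 on the control, 6.98 and 6.21 on the 48 h pair, and 6.45 and 6.04 at 72 h, so the 2 times overlapped.

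The 3 highest genes at 72 h encode secreted products of mucous and goblet cells. Zg16, a lectin of intestinal goblet cells and pancreatic granules, read 3.34 on the control, 8.17 on A and 7.94 on B. Fcgbp, a mucin-associated protein, read 4.57, 8.79 and 8.72. Clca1, a metalloprotease of mucus, read 6.90, 10.84 and 10.29. All 3 were above the control on both arrays, by 4.72 ± 1.21, 4.19 ± 1.28 and 3.66 ± 0.29 in limma, with adjusted p of 0.22, 0.264 and 0.146.

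Their courses before 72 h differed. Clca1 was above the control by 2.32 to 3.85 on all 4 earlier arrays. Zg16 differed by 0.26 at the first time, by 4.93 at 36 h, and by 3.34 and 0.87 on the 48 h pair. Fcgbp differed by -0.52, 4.93, 3.24 and 0.61 in that order. Spink4, a peptide of goblet cells, read 7.61, 9.10 and 9.17 at 72 h, but 7.70 and 9.55 at 48 h. In Zg16, Fcgbp and Spink4 the 48 h arrays were farther apart than those of 72 h, and in Clca1, at 10.19 and 10.40 on the 48 h pair, they were nearer.

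Some other goblet markers lay within 0.5 of the control, of which Tff3, Spdef and Atoh1 were chosen after their values were seen. Muc2, the intestinal mucin, read 4.49, 4.71 and 4.88, Tff3 5.78, 5.51 and 5.69, Spdef 6.77, 6.75 and 6.73, and Atoh1 4.22, 4.10 and 4.39. Muc2 and Atoh1 were dim, as the median over all genes on the control was 5.2. Of 14 measured genes of the goblet list 4 were at least 2-fold higher, against 0.343% of all genes. Within 0.5 lay 9 of the 14 (64.3%), against 85.9% of all genes. Of 19 enterocyte markers 12 (63.2%) lay within 0.5, 1 was at least 2-fold higher and 1 lower. The higher one was Fabp2, a fatty acid carrier, at 6.77, 8.13 and 7.86, and the lower one Apoa4, an apolipoprotein, at 9.30, 7.27 and 7.79. Sis read 2.77, 2.77 and 2.82 and Alpi 4.86, 5.12 and 4.59. Cdx2, the intestinal transcription factor, read 4.06 on all 3 arrays.

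**Figure D3:**
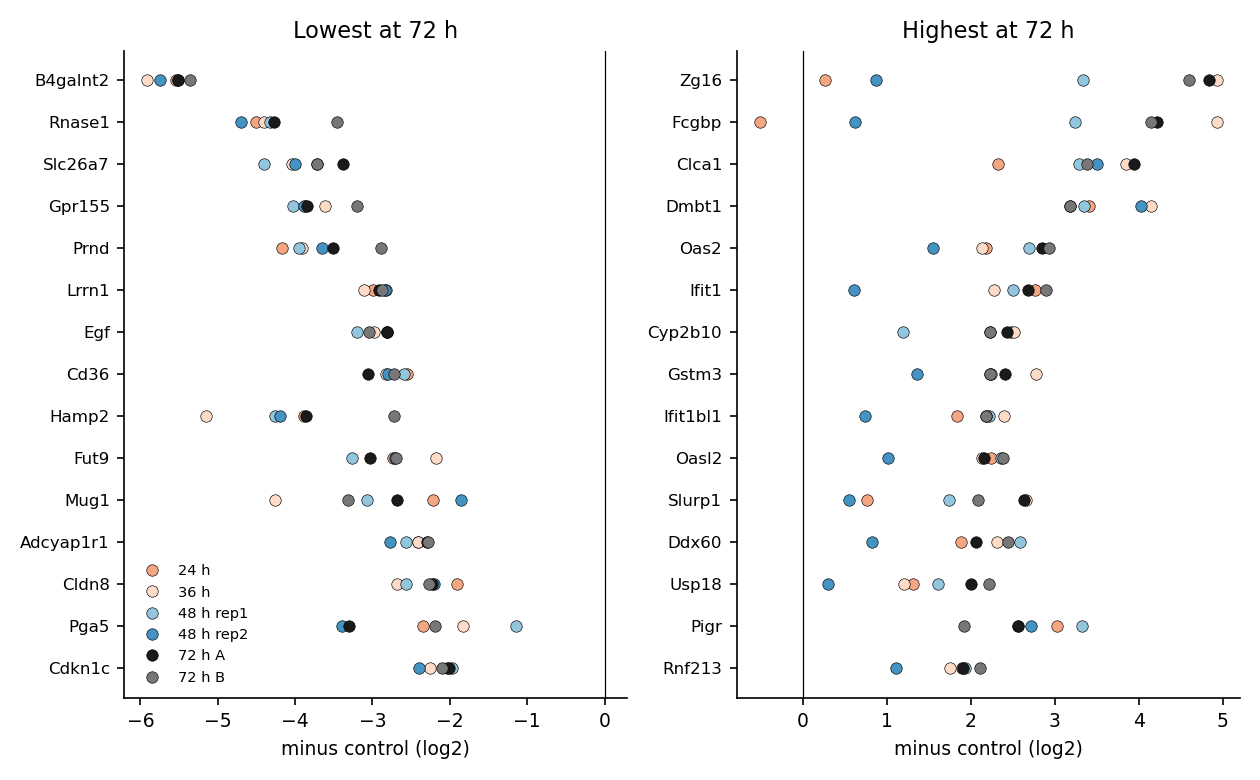
Difference from the control (log2) on each of the 6 toxin arrays, for the 15 named genes lowest (left) and highest (right) at 72 h by the smaller of the 2 arrays' differences. At left the 6 points span 0.28 in Lrrn1 and 0.55 in B4galnt2 but 2.25 to 2.44 in Pga5, Mug1 and Hamp2; at right they span 4.67 in Zg16, 5.45 in Fcgbp and 2.30 in Ifit1.

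Proteins that move antibody and bind microbes were among the highest. Dmbt1, a mucosal scavenger glycoprotein, read 5.91, 9.09 and 9.09. Pigr, the transporter of polymeric immunoglobulin across epithelium, read 5.55, 8.11 and 7.47. Bpifb1, a secreted protein of mucosal surfaces, read 9.0, 10.43 and 10.55. All 3 were at least 2-fold higher on both arrays, and these were the only such members of 21, of which 13 (61.9%) lay within 0.5. Reg3g, an antimicrobial lectin, had come nearer the control, at 4.37 and 4.57 against 6.06 and 5.31 at 48 h and 3.81 on the control.

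Endocrine genes differed by hormone. Gast, the hormone gastrin, read 5.83 on the control, 7.32 and 6.68 at 48 h, and 8.32 and 7.61 at 72 h, its highest values on any array. Limma gave 2.13 ± 0.47 (adjusted p 0.194). Gastrin is made by G cells of the antrum, the neighbouring part of the stomach, and the share of antrum in each sample was not tested. Chgb, a granin of endocrine granules, read 6.93, 8.74 and 8.36, and Chga 9.98, 10.64 and 10.21.

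Hormones of the corpus lay on the other side or at the control. Sst, somatostatin, read 11.06, 10.42 and 10.41, and Ghrl, ghrelin, 11.88, 11.84 and 11.32. Hdc, which makes histamine, read 7.31, 7.26 and 7.26. Cckar, a receptor of cholecystokinin, read 10.12, 8.83 and 8.74 and was the sole lower member in a 2-fold class of 23 measured, of which 15 (65.2%) lay within 0.5. For tuft cells, Dclk1 read 5.17, 5.47 and 5.62 and Trpm5 5.88, 5.93 and 5.93. Of 17 tuft cell genes 14 were higher on both arrays, against 34.5% of all genes, 8 (47.1%) lay within 0.5 and 0 were in a 2-fold class.

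Cell division was still above the control, at a lower level than before. Mki67, a marker of dividing cells, read 7.69 on the control, 9.47 and 9.33 at 48 h, and 8.81 and 8.6 at 72 h. Top2a, a topoisomerase of mitotic chromosomes, read 6.52, then 8.04 and 7.76, then 7.41 and 6.91. Both genes were lower on each 72 h array than on each 48 h array and higher than on the control. Among 51 measured G2/M and mitosis genes, 37 were lower on both 72 h arrays than on both 48 h arrays, against 13.0% of all genes.

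Within 0.5 of the control lay 17 of the 51 (33.3%), and 48 were higher on both arrays, against 34.5% of all genes. Spc24, a kinetochore subunit, was the member at least 2-fold higher on both, at 5.14, 6.51 and 6.21. The list's medians at 72 h were 0.57 and 0.35, and 44 of 51 members were higher on array A than on B, against 43.4% of all genes. Among 40 genes of G1/S and DNA replication, 37 were higher on both, against 34.5% of all genes. Of the 40, 24 (60%) lay within 0.5, and the medians were 0.43 and 0.32. Hells, a chromatin remodeller of replicating cells, read 5.27, 6.86 and 6.42, whereas Pcna, the replication clamp, read 8.58, 8.93 and 8.61. Ribosomal protein genes were higher on both arrays in 48 of 56 cases, against 34.5% of all genes, with medians of 0.52 and 0.45. Rps28 read 8.31, 9.58 and 9.62, but its 2 probe sets had mean differences of 0.24 and 1.29.

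Stem cell and Wnt genes had no member in a 2-fold class, where 0.343% (higher) and 0.71% (lower) of all genes lay. Of 24 measured genes 18 (75.0%) lay within 0.5, against 85.9% of all genes. Lower on both arrays were 13 of the 24, against 33.7% of all genes. Lgr5, a receptor of stem cells and of some chief cells, read 6.51, 5.81 and 5.62 on the probe set used, and its 2 probe sets had mean differences of -0.79 and -0.04. Axin2, a target of Wnt signalling, read 6.25, 6.11 and 5.87. Egf, a ligand of the EGF receptor, was far below the control at 7.51, 4.70 and 4.46, with -2.93 ± 0.23 in limma (adjusted p 0.146). Tgfa, another ligand of that receptor, read 6.81, 6.80 and 6.86.

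Interferon-stimulated genes had more members in a 2-fold class than any other of the 47 lists. Of 42 measured, 14 were at least 2-fold higher on both arrays, which is 14 of the 73 genes in that class. Of the 42, 36 were higher on both, against 34.5% of all genes, and 8 (19.0%) lay within 0.5. Ifit1, which binds foreign RNA, read 4.66 on the control and 7.34 and 7.55 at 72 h. Oas2, a synthetase of the activator of RNase L, read 5.41, 8.26 and 8.34. Isg15, a ubiquitin-like modifier, read 4.06, 5.71 and 5.85. All 3 were above the control on both arrays, by 2.79 ± 0.94, 2.89 ± 0.56 and 1.72 ± 0.54 in limma, with adjusted p of 0.291, 0.174 and 0.269.

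The transcription factor Irf7 read 5.41, 7.22 and 7.43, and Usp18, which removes Isg15 from its targets, 5.18, 7.18 and 7.40. The members named had like values on both arrays, and 7 of 42 were higher on A than on B, against 43.4% of all genes. The second 48 h array stood apart: 40 of 42 members were lower on it than on the first, against 45.2% of all genes, and 37 were lower on it than on both 72 h arrays, against 34.4%. The list's medians were 0.75 (24 h), 0.57 (36 h), 0.86 and 0.20 (48 h), and 0.67 and 0.90 (72 h). Array B thus had the highest median of the 6 toxin arrays for this list, while the lists of cell division had their lowest medians there. Genes of MHC class II, which present antigen and answer to another interferon, lay within 0.5 in 10 of 10 cases. Macrophage genes did so in 21 of 23 cases (91.3%) and T and NK cell genes in 16 of 19 (84.2%). The share over all genes was 85.9%. The median levels on the control were 5.23, 5.3 and 3.81 in these 3 lists, in that order, against 5.2 over all genes.

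**Figure D4:**
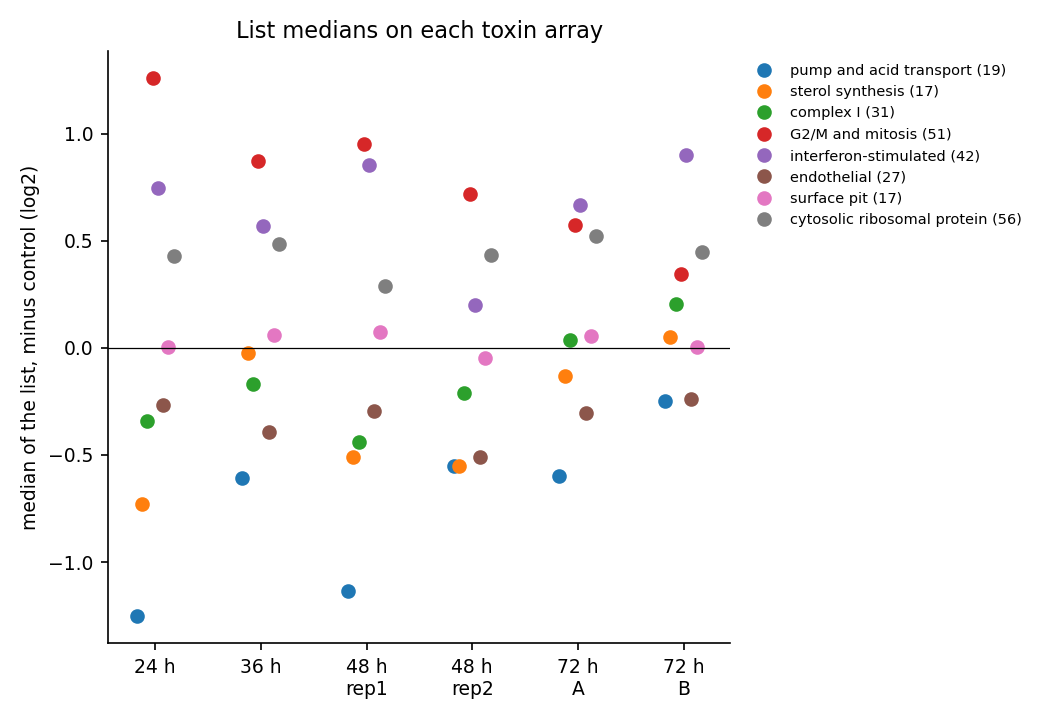
Median difference from the control (log2) of 8 gene lists on each of the 6 toxin arrays, with the number of measured genes in brackets. G2/M and mitosis genes come down to 0.57 and 0.35 at 72 h, acid transport genes lie at -0.60 and -0.25, interferon genes are at 0.67 and 0.90 after 0.20 on the second 48 h array, and surface pit genes stay near 0.

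Promoters of the interferon and mitosis lists are shown because these lists kept differences of 1 sign in most members at 72 h. The sequences are from RefSeq, build GRCm38.p6, from 250 bases before to 50 after the gene's start, 5′ to 3′ on the gene's strand. Capitals mark the interferon response core (TTTC, any 2 bases, TTTC), on either strand, in the first pair, and the cell cycle homology region TTTGAA, on either strand, in the second.
Ifit1 (chr19:34640639-34640938, plus strand): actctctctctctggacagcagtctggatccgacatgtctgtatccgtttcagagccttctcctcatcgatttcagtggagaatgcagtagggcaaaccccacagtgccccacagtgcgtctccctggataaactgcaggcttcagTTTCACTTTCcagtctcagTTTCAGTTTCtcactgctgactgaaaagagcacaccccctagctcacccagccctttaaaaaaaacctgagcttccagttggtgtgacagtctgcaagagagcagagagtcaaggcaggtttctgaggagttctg
Isg15 (chr4:156200769-156201068, minus strand): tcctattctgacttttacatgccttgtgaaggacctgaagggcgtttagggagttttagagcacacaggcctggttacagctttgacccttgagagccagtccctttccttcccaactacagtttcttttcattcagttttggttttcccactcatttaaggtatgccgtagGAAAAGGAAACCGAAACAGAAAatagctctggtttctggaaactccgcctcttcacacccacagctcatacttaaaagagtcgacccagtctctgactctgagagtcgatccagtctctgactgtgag
Mki67 (chr7:135716330-135716629, minus strand): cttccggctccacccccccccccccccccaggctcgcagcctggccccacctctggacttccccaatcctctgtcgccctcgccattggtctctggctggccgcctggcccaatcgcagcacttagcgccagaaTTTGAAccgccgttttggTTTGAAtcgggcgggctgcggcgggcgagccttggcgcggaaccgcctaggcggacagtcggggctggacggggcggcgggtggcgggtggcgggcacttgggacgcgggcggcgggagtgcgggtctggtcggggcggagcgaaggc
Cdk1 (chr10:69352863-69353162, minus strand): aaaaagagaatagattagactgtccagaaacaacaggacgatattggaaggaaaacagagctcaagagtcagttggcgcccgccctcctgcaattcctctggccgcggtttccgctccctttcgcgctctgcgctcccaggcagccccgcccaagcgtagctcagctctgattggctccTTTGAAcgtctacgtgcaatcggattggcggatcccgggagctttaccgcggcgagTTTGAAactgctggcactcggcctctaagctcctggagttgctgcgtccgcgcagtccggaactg
Ifit1 held 2 matches, Isg15 3 overlapping ones, and Mki67 and Cdk1 2 each. The interferon core was in 18 of 38 promoters of the interferon list (47.4%, 33 genes matched) and in 3.44% of all 32851 promoters of the same length. TTTGAA was in 35 of 45 promoters of the mitosis list (77.8%, 41 genes matched) and in 17.9% of all. AAGGTCA, a binding motif of nuclear receptors, was in 1 of 16 promoters of the acid transport list (6.25%, 10 genes matched) and in 4.72% of all. Matches shared bases between the interferon core and TTTGAA in 16 promoters, between AAGGTCA and TTTGAA in 26, and between AAGGTCA and the interferon core in 1. Only some of the interferon genes in the higher class had their promoters viewed singly. Among those viewed, Oasl2, Irf7 and Cmpk2 had 0 matches to this core in this window. Among the mitosis promoters viewed singly, Bub1 had 0 matches to TTTGAA, and the promoter of Atp4a had 0 to AAGGTCA. A match is a run of letters and not a measured site.

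The lowest genes were a mixed set, and some of them differed little among the toxin arrays. B4galnt2, a glycosyltransferase that adds a terminal sugar to mucosal glycans, read 9.19 on the control and 3.68 and 3.83 at 72 h, with -5.44 ± 0.14 in limma (adjusted p 0.146). Its values on the 4 earlier arrays ran from 3.28 to 3.68. Lrrn1, a leucine-rich repeat membrane protein, read 7.33, 4.42 and 4.46, with a difference of -2.89 ± 0.05 (limma adjusted p 0.146). Fut9, a fucosyltransferase, read 8.03, 4.99 and 5.33.

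Hamp2, a hepcidin gene, read 9.53, 5.68 and 6.82, and its 6 toxin arrays spanned 2.44. Others of this set were Cdkn1c, an inhibitor of the cell cycle, at 7.44, 5.42 and 5.33. Adcyap1r1, the receptor of the neuropeptide PACAP, read 7.92, 5.62 and 5.64, and the tight junction gene Cldn8 7.77, 5.54 and 5.5. The 6 toxin arrays spanned less than 1 in 120 of the 151 lower genes (79.5%) and in 29 of the 73 higher ones (39.7%), against 97.2% of all genes. The median level on the control was 7.79 in the lower class, 5.6 in the higher class and 5.2 over all genes.

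Some members of the classes were next to each other on a chromosome. Furin and Blm on chromosome 7, with no measured gene between them, had mean differences of -1.66 and -1.95, Enpp5 and Enpp4 on chromosome 17 -1.58 and -1.38, and Necab1 and Tmem64 on chromosome 4 -1.71 and -1.58. Rsad2 and Cmpk2 on chromosome 12, both induced by interferon, had 1.21 and 1.61. Plvap and Bst2 on chromosome 8 lay on opposite sides, at -1.22 and 1.55. Isg15 and Perm1, Hells and Cyp2c66, and Cyp2c66 and Cyp2c29 were further near pairs on opposite sides. There were 16 pairs with at most 2 measured genes between them, chosen after their values were seen. How many such pairs spacing alone would give was not tested.

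Endothelial genes lay within 0.5 of the control less often than genes as a whole, and a few were well below it. Kdr, the main VEGF receptor, read 8.27 on the control and 6.70 and 7.21 at 72 h, and Plvap, a protein of fenestrated capillaries, 9.04, 7.73 and 7.93. Pecam1 read 7.68, 6.87 and 7.04, and Cdh5, the adhesion protein of endothelial junctions, 7.85, 6.95 and 7.07. Of 27 measured genes 19 were lower on both arrays, against 33.7% of all genes. Of the 27, 3 (Kdr, Plvap and Emcn) were at least 2-fold lower on both, against 0.71% of all genes. Within 0.5 lay 16 (59.3%), against 85.9% of all genes. The medians were -0.30 and -0.24 at 72 h and between -0.51 and -0.27 on the earlier arrays. Vegfa, the ligand of Kdr, read 8.75, 8.37 and 8.59. Cxcl12, a chemokine of stromal cells, read 8.16, 6.75 and 6.78, with -1.39 ± 0.05 (limma adjusted p 0.146).

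Detoxification genes held members on both sides. Gstm3, a glutathione transferase, read 5.6, 8.0 and 7.82, and Cyp2b10, a cytochrome P450, 5.10, 7.53 and 7.33. Akr1b8, an aldo-keto reductase, read 6.22, 7.61 and 7.53, and Ces2a, a carboxylesterase, 7.08, 5.71 and 5.43. The list had 4 of 35 genes at least 2-fold higher, 1 lower and 19 (54.3%) within 0.5. Nqo1, a target of the oxidative stress factor Nrf2, was near the control at 10.50, 10.67 and 10.61, after 11.50 and 10.76 at 48 h. Of 25 immediate early genes 16 (64.0%) lay within 0.5, and Egr1 and Atf3 were at least 2-fold higher, Egr1 at 5.99, 7.13 and 7.29 and Atf3 at 6.99, 8.23 and 8.04.

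Squamous epithelium, which lines the forestomach next to the corpus, differed between the 72 h arrays. Krt13, a keratin of that epithelium, read 6.54 on the control, 7.73 on A and 4.47 on B. In the 22 measured squamous genes the medians were 0.49 on A and -0.33 on B, 9 members differed at least 2-fold between the arrays, and Krt14, a keratin of basal cells, read 4.58, 4.70 and 4.50. The first 48 h array also had a low median, -0.25, and the second 0.29. Ly6d, a member of the list, was higher on both arrays at 7.21, 8.64 and 8.72, and Slurp1, a secreted protein of squamous epithelia, at 5.79, 8.41 and 7.86. The part of squamous tissue in these 2 was not tested. Of 17 pancreas markers 9 (52.9%) lay within 0.5, 2 (Zg16 and Cela1) were at least 2-fold higher and 1 (Cel) was at least 2-fold lower. Of the 17, 9 were lower on both, against 33.7% of all genes. Cela1, an elastase, read 6.61, 7.80 and 8.14, and Cel, a lipase of bile-salt type, 7.58, 5.63 and 5.19. Cpa1 (4.13, 4.09 and 4.09) and Prss2 (3.97, 4.39 and 4.22), both dim on all 3 arrays, lay within 0.5. Smooth muscle genes read like the control, with Acta2 at 12.04, 11.73 and 11.94 and Myh11 at 10.26, 10.23 and 10.48.

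**Figure D5:**
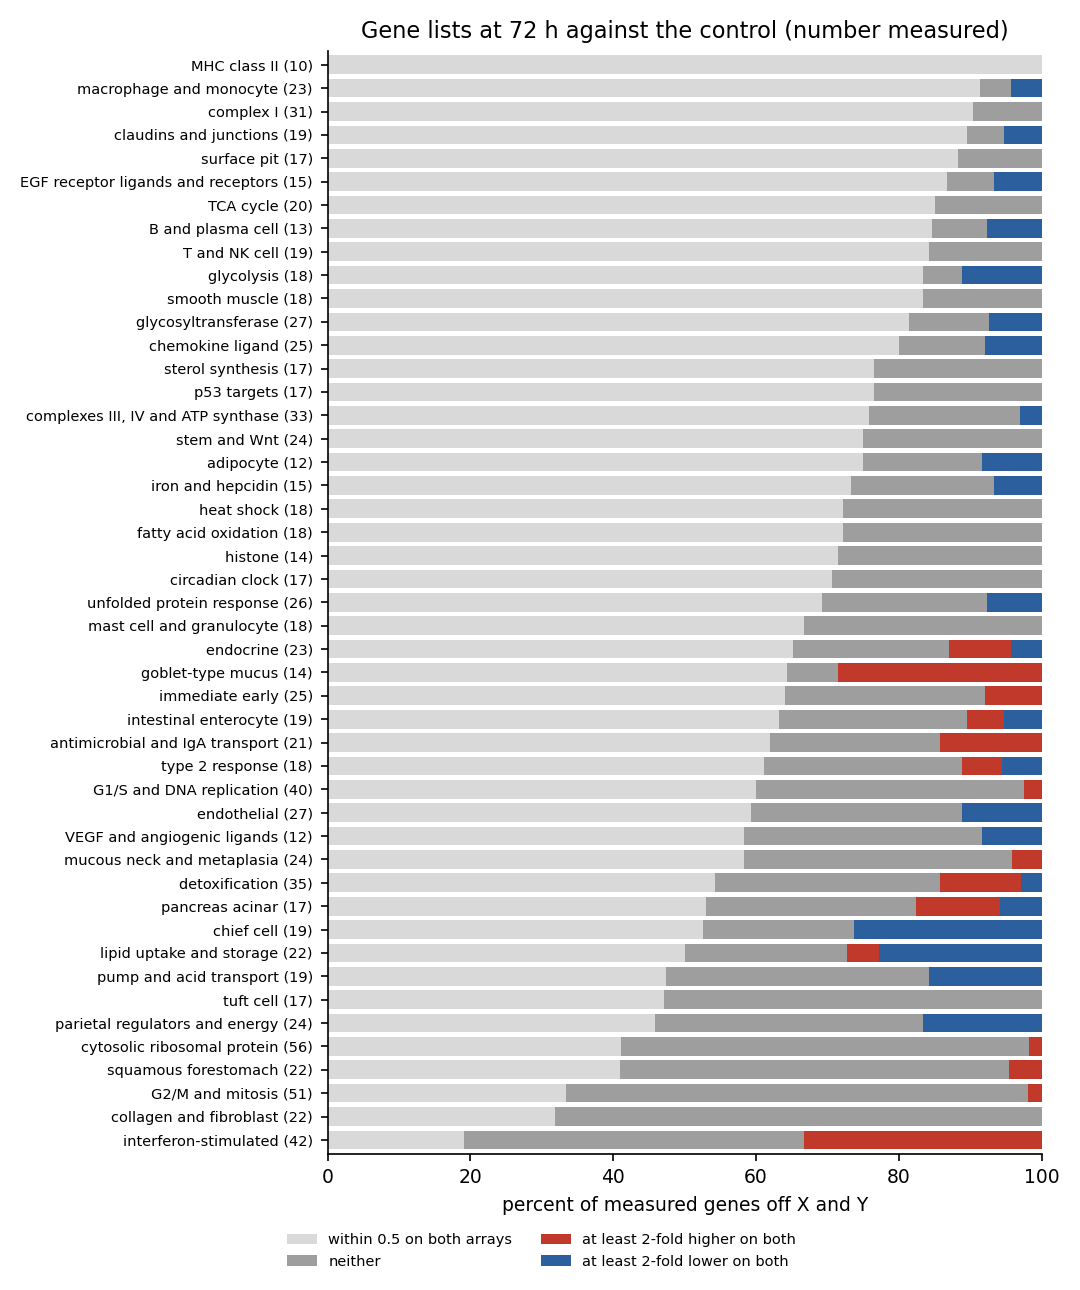
Share of the measured genes of each list (number in brackets) that lay within 0.5 of the control on both 72 h arrays, in neither class, or at least 2-fold higher or lower on both. MHC class II, complex I and surface pit genes were within 0.5 in 100%, 90.3% and 88.2% of cases, and interferon genes in 19.0%; over all genes the share was 85.9%.

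Genes that had departed by 48 h were then followed to 72 h. Both times share the control array, so a high or low control value enters both. Of 82 genes at least 2-fold higher on both 48 h arrays (0.386% of all), 29 (35.4%) were still so on both 72 h arrays, 53 (64.6%) lay between and 0 were within 0.5 on both. Of 231 genes at least 2-fold lower (1.09%), 120 (51.9%) were still so, 107 (46.3%) lay between and 4 (1.73%) were within 0.5. With array B alone, 9 of the higher and 29 of the lower genes were within 0.5, and with array A alone 2 and 4. With array A alone, 47 of the higher genes were still higher.

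The 4 genes that had come back within 0.5 were all from the lower side. Adssl1, an enzyme of the purine nucleotide cycle, read 6.65 on the control, 4.75 and 5.25 at 48 h, and 6.29 and 6.92 at 72 h. Ldhb, the lactate dehydrogenase subunit of oxidative tissues, read 8.71, then 7.19 and 7.47, then 8.31 and 8.62. Lonrf1, a gene with a domain like that of the Lon protease, read 7.24, then 6.07 and 5.92, then 6.92 and 7.30. Fam160a1 read 6.90, then 5.77 and 5.88, then 6.44 and 6.53. On all 4 the 72 h arrays lay above both 48 h arrays, and in Adssl1 and Lonrf1 they lay on both sides of the control.

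Measured from the single 24 h array, which shared the sex-linked pattern of the control, genes were followed in the same way. Of 259 genes at least 2-fold higher at 24 h, 52 (20.1%) were still so on both 72 h arrays and 53 (20.5%) were within 0.5 on both. Of 357 genes lower at 24 h, 131 (36.7%) were still so and 36 (10.1%) were within 0.5. Atp4b was among these 36, with 10.68 at 24 h. The 24 h value is from 1 array with no replicate, and these shares carry no test.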

How the data were processed

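Total RNA from snap-frozen corpus was labelled as biotinylated cDNA (Affymetrix WT Plus) and hybridised to 1 array per sample, per the labels' protocols. The authors deposited a table of log2 signal, 41345 probe sets by 7 arrays. RMA and Partek are named, per the submitters' processing notes, and their versions are not given in sources used here. All 7 columns were used, and 0 columns of samples were left unused. Depth does not apply to arrays.

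The annotation gave 1 gene for 23521 probe sets, several for 1814 and none for 16010. Of the 1-gene probe sets 23328 matched the GRCm38.p6 gene table by Entrez ID, which gave their chromosome, and 193 did not; symbols are the annotation's. In 1082 genes with several, the one of highest mean over the arrays was kept. Of the 21258 genes, 44 had no chromosome in the gene table and were kept. Tests used limma 3.58.1 in R 4.3.3 (two-sided, eBayes) on all 7 arrays, each group having its own mean, and Benjamini-Hochberg adjustment over all 22180 genes. Degrees of freedom were 2 residual and 1.15 prior. The lone control is assumed to vary like the 48 h and 72 h pairs, and p-values measure only the spread between these arrays, which may be technical. The pipeline was tested on simulated data. Classes by size used thresholds of 2-fold and of 0.5 on both arrays.

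Named genes are the 15 furthest in each direction at 72 h, up to 10 a direction that were 2-fold at 48 h and within 0.5 at 72 h, an anchor set per list, and up to 4 members of a list in a 2-fold class. Predicted genes, Riken clones, small RNA, mitochondrial, receptor and immunoglobulin segments and pseudogenes were left unnamed. Atoh1, Cdx2, Spdef, Tff3, Fabp1, Cmpk2, Bub1 and the neighbouring pairs were chosen after their values were seen. The members and the 47 gene lists were chosen with earlier results of these data known. Lists are described by counts and medians, with no test of a list. Alternatives were the scaling, the probe set, dim genes, single arrays, other thresholds, tied values and a replicate block.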

Additional observations from a re-analysis of the deposited data

How the results depend on the processing

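The classes by size changed little with scaling or probe sets: the counts of 2-fold higher and lower genes were 76 and 127 after a second quantile normalisation, 74 and 146 after subtracting array medians and 66 and 149 with the mean of all probe sets. With a 1.5-fold threshold they were 342 and 651. With dim genes left out, which left 11315 genes, 8947 were within 0.5. Leaving out either 72 h array gave 99 to 139 higher and 216 to 270 lower genes. Of the genes 2-fold higher at 48 h, 36 to 47 were then still higher and 2 to 9 within 0.5, and of those lower, 4 to 29 were within 0.5.

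The limma call was the least stable. It was 0 as reported, 3 after a second quantile normalisation, 10 after subtracting array medians, 2 with dim genes left out and 47 (8 higher, 39 lower) among the 13699 genes with at least 6 distinct values over the 7 arrays, which leaves out genes of tied values; the cause of the others was not tested. B4galnt2 and Lrrn1 were called in each of these 4. The replicate numbers share only a label, since the rep2 minus rep1 differences at 48 h and 72 h correlated at -0.13 across genes. With them as a replicate block the call was 0, with a smallest adjusted p of 0.352, and 0 of the 168 named genes were called. Of these 168 genes 144 kept 1 sign under every alternative run. Many of the 168 were named for lying at least 2-fold to 1 side on both 72 h arrays. Leaving out an array could not change the sign of those genes, so the count does not measure stability. Of the 47 list medians 15 changed sign under an alternative, among them smooth muscle (-0.12, 0.05 without replicate 1), collagen (0.11, -0.06 without replicate 2) and squamous genes (-0.15, 0.49 without replicate 2).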

Other observations

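Genes of collagen and fibroblasts lay apart on the 2 arrays of 72 h. Col1a1, the main fibrillar collagen chain, read 8.54 on the control, 8.65 on A and 9.44 on B, and Col3a1 7.94, 8.15 and 8.68. The list of 22 genes had medians of -0.06 on A and 0.29 on B, with 7 (31.8%) within 0.5 on both and 1 member higher on A than on B, against 43.4% of all genes.

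Single genes also set arrays apart. Cpa3, a protease of mast cell granules, read 5.32 on the control, 7.10 on A and 5.42 on B, and 6.60 and 6.67 on the 48 h pair. Hamp, the second hepcidin gene, read 7.36 on the second 48 h array, 3.35 on the first and 2.14 and 2.38 at 72 h, with 2.82 on the control.

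The clock gene Per1 read 8.45 on the control, 8.22 and 8.16 (48 h), then 7.12 and 7.48 (72 h). Its limma difference at 72 h was -1.15 ± 0.19 (adjusted p 0.161). The clock genes Arntl at 8.45, 8.23 and 8.24 and Nr1d1 at 7.72, 8.31 and 8.45 lay on opposite sides of the control. The hour of collection was not given, and its part in these values was not tested.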
